A study of Homo sapiens with 18 samples.

Results

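The p53 target genes described here were 31 named genes of 38716 gene symbols in the tables. They were chosen by name, from textbook knowledge of genes that p53 switches on, with earlier results of these data known. The 31 were sorted into 5 roles. The roles were feedback on p53 (5 genes), arrest and growth control (5 genes), death (9 genes), repair (4 genes), and metabolism, mitochondria and secreted factors (8 genes). Regulators of the pathway and further targets such as CDKN1A were kept as separate lists for comparison.

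p53 is a transcription factor that cells keep scarce, because MDM2, which is itself a p53 target, marks it for degradation. Damaged DNA, short telomeres and other stresses stabilise the protein, which then binds sites near its target genes and raises their transcription. Much of this control acts on the p53 protein and not on its mRNA, which sequencing of RNA does not see. In fibroblasts, p53 and its target CDKN1A, which encodes the cyclin-dependent kinase inhibitor p21, are best known for holding senescent cells out of the cell cycle.

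The cells were IMR90, fibroblasts from human fetal lung that are widely used as a line and divide a limited number of times. Their mRNA and ribosome footprints were sequenced in 3 conditions with 3 replicates each, 18 libraries in all. Young cells were of low passage and proliferating. Old cells were of high passage and had entered replicative senescence. ICM cells were of low passage and had been given inflachromene, a compound whose known binding partners are the DNA-bending proteins HMGB1 and HMGB2, for 6 days per the study. All were wild-type cells of this line, and the passage numbers at harvest were not given in the sources used here. In Ribo-seq, the fragments of mRNA that ribosomes shield from nuclease are sequenced, so that reads in the coding sequence (CDS) count ribosomes at work on a gene. Per the study's methods, the replicates were grown independently and each lysate gave both an mRNA-seq and a Ribo-seq library. Libraries are called by condition and replicate number, as in young 1.

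The mRNA-seq libraries held 7902301 to 14144345 reads in genes, and all 31 targets had reads in each. The Ribo-seq libraries held 46170 to 1718431 CDS reads, and between 21 and 31 of the targets had a footprint. Levels are given in CPM, the usual scaling of read counts to library size, after adjustment of the libraries to each other by TMM. The 8 fibroblast markers were all expressed, with a summed mRNA level of 31870 to 36120 CPM in young, 30020 to 34950 in old and 13660 to 14160 in ICM libraries. Of 8 markers of blood, endothelial and epithelial cells, 5 averaged under 1 CPM in each condition, and the list summed to 320.2 to 338 CPM in young, 273 to 299 in old and 100 to 110 in ICM libraries, most of it from KRT8, KRT18 and CD68. The markers within each list did not all move together. From young to ICM libraries, KRT18 fell from a mean of 278 to 29.7 CPM and KRT8 from 31.7 to 16.8 CPM. CD68 rose from 20.6 to 58.6 CPM. Of the fibroblast markers, 7 fell with ICM and DCN was not called. The part of these shifts in the results below was not tested.

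The window around each gene start was searched for the p53 response element, the binding site of the p53 tetramer. The site has 20 bases, made of a pair of 10-base arms that each carry a 4-base core, and both strands were read. A site was accepted with at most 2 mismatches, provided that the C that opens and the G that closes each core were intact, within 2500 bases of the gene start in GENCODE lifted to GRCh37. Of the 31 targets, 14 (45.2%) had such a site, against 752 of 20149 protein-coding genes (3.73%). The 31 were chosen as known targets of p53, so this excess is a description and not a test. The sites below belong to the targets on which the results turn, are written on the gene's strand, and have the cores in capitals.
MDM2: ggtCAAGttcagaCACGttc
GADD45A: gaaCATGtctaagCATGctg
PLK2: aaaCATGcctggaCTTGccc
ZMAT3: aaaCAAGtccagaCATGcct
BAX: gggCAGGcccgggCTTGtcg
GDF15: agaCCTGcccggaCATGtcc
CDKN1A: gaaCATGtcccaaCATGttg
The sites of PLK2 (chr5:57758101-57758120, minus strand) and ZMAT3 (chr3:178787976-178787995, minus strand) had 0 mismatches to the consensus. The first lay upstream of the gene and the second in an intron. Sites with 1 mismatch were found in an intron of GADD45A (chr1:68152458-68152477, plus strand) and upstream of GDF15 (chr19:18484757-18484776, plus strand). The site of MDM2 (chr12:69202703-69202722, plus strand) and that of BAX (chr19:49458470-49458489, plus strand) were intronic and had 2 mismatches. CDKN1A, which was not among the 31, had a site with 2 mismatches at its annotated start (chr6:36644226-36644245, plus strand). A match is a description of the sequence, and p53 binding was not measured in these libraries.

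**Figure D1:**
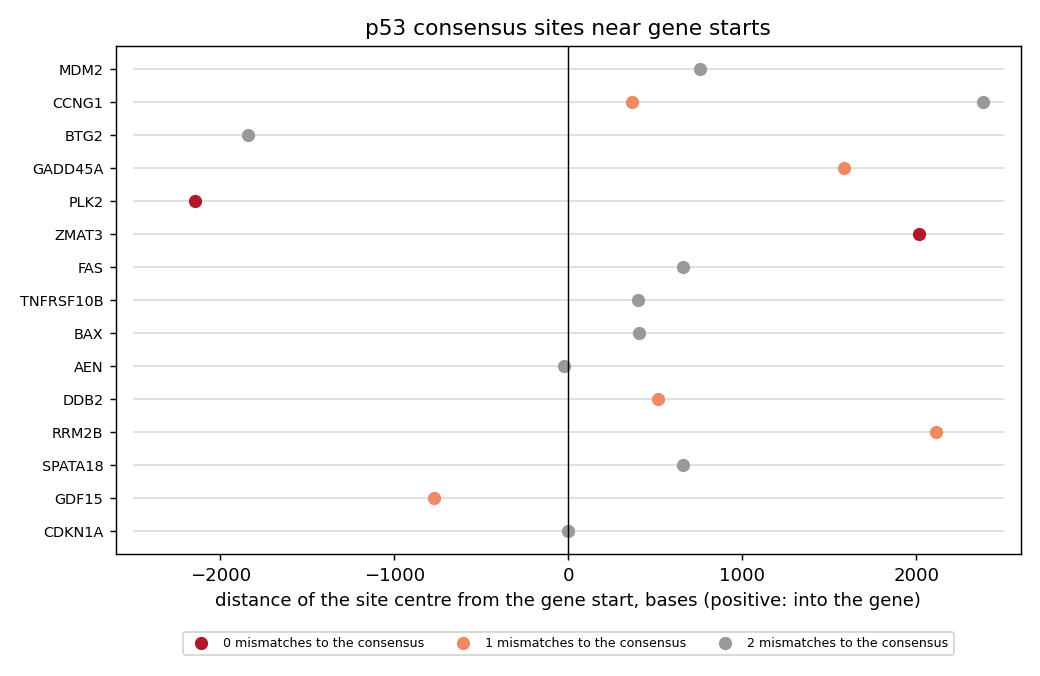
Distance in bases of the centre of each p53 consensus site from the annotated gene start (x axis, positive into the gene) for the 14 targets with a site and for CDKN1A (y axis). Points are coloured by mismatches to the consensus, and 0 mismatches occurred at PLK2 and ZMAT3.

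The mRNA of most targets was higher in both kinds of arrested cell than in young cells. With ICM, 23 of the 31 rose and 5 fell, where 34.9% of the 13173 genes tested rose and 36.1% fell. The 5 falls became 3 without young 2, without ICM 1 or with CDS reads alone. In old cells 18 rose and 4 fell, where 32.4% of all genes rose and 33.7% fell. The median log2 change of the 31 was 0.62 with ICM and 0.45 in old cells, and that of all genes was -0.01 in both comparisons. Between the arrested states the balance was more even. Of the 31 targets, 14 were higher and 10 lower in ICM than in old cells, where 30.7% of all genes were higher and 32.6% lower, and the median log2 difference was 0.11. The comparisons share their libraries, so they are not independent of each other. These shares of all genes are also the background for the mRNA counts by role and by site below. In bulk libraries, fewer cells with a transcript and less of it per cell cannot be told apart.

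A gene was called at an adjusted p under 0.05 in edgeR's quasi-likelihood test, with Benjamini-Hochberg adjustment over all genes tested, and values below are log2 changes ± SE with 3 libraries a group unless stated otherwise. The exons of 9 targets overlap a coding gene on the opposite strand, among them MDM2, FAS (with ACTA2), POLH, XPC and TP53I11. Whether reads were counted by strand was not given in the sources used here, so reads of such pairs cannot be told apart. TNFRSF10C and TIGAR overlap a coding model on their own strand, and TNFRSF10C is also close in sequence to its neighbours of the same family, so that its reads are uncertain.

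**Figure D2:**
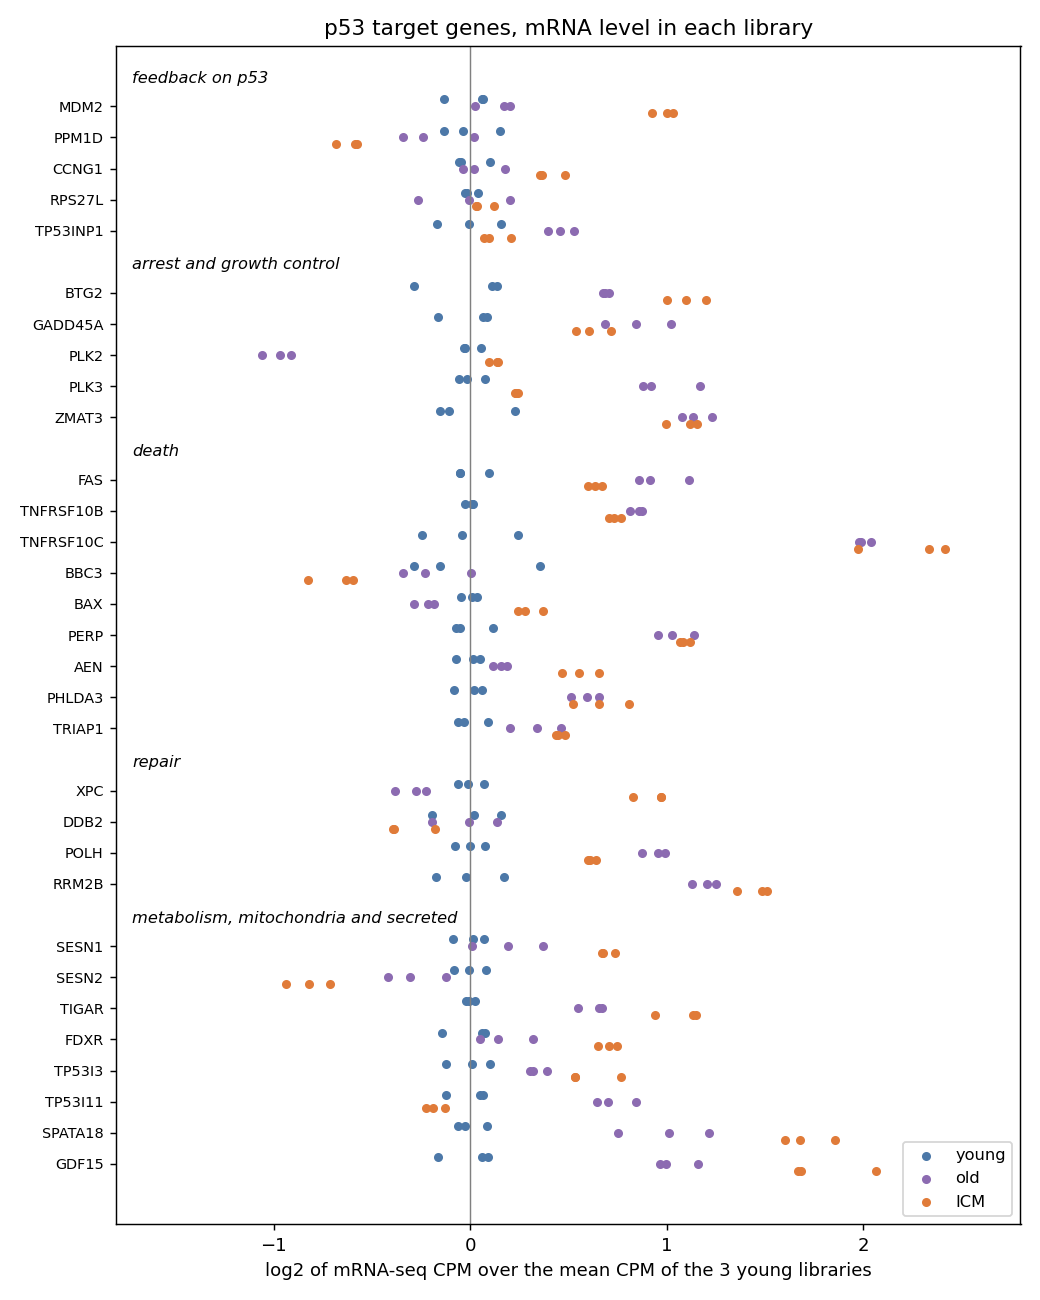
Messenger RNA level of the 31 p53 targets in each of the 9 mRNA-seq libraries, as the log2 of its CPM over the mean CPM of the 3 young libraries (x axis), with genes grouped by role (y axis). Each point is 1 library. The ICM points of MDM2, XPC, GDF15 and SPATA18 lie to the right of all old points, and those of PLK3 and TP53I11 to the left.

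Of the genes that feed back on p53, the ubiquitin ligase MDM2 had the largest change with ICM. Its mRNA stood at 82.3, 94.4 and 94.0 CPM in the young libraries, at 91.8, 104 and 102 CPM in the old and at 184, 171 and 181 CPM in the ICM libraries. All 3 ICM libraries lay far above the rest, while young and old overlapped. The change was 0.98 ± 0.07 with ICM (1.98-fold, adjusted p = 1.66e-11) and 0.13 ± 0.07 in old cells (adjusted p = 0.0981), and ICM exceeded old cells by 0.85 ± 0.07 (adjusted p = 2.41e-10).

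PPM1D, a phosphatase that removes activating phosphates from p53 and its kinases, went the other way. It fell with ICM by 0.61 ± 0.11 on the log2 scale (adjusted p = 3.25e-05), from 18.3 to 22.3 CPM in young libraries to 12.5 to 13.5 CPM in ICM libraries. Its old libraries, at 15.9 to 20.3 CPM, overlapped the young ones. CCNG1, cyclin G1, which helps MDM2 act on p53, rose with ICM (0.40 ± 0.07, adjusted p = 1.87e-05) and had a change of 0.06 ± 0.07 in old cells (adjusted p = 0.46). TP53INP1, a stress-induced partner of p53, rose in old cells (0.45 ± 0.09, adjusted p = 8.56e-05) and had a change of 0.12 ± 0.09 with ICM (adjusted p = 0.233). The ICM and old libraries of TP53INP1 differed by -0.33 ± 0.08 (adjusted p = 0.00142), a call lost when CDS reads alone were used (adjusted p = 0.126). RPS27L, a ribosomal protein variant that binds MDM2, passed the test in none of the 3 comparisons, with log2 changes of 0.06, -0.01 and 0.07.

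In the arrest and growth control group, 4 of 5 mRNAs rose with ICM and 4 rose and 1 fell in old cells. ZMAT3, an RNA-binding protein that regulates splicing and RNA stability, stood at 53.9, 55.7 and 70.4 CPM in young, 127, 132 and 141 CPM in old and 133, 120 and 130 CPM in ICM libraries. Old and ICM libraries overlapped, and both stood clear of the young ones. The rises were 1.09 ± 0.08 with ICM (adjusted p = 8.4e-11) and 1.15 ± 0.08 in old cells (adjusted p = 5.64e-11), and the difference between the arrested states was -0.06 ± 0.08 (adjusted p = 0.531). With CDS reads alone this difference turned to 0.31 and was called (adjusted p = 0.0324).

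BTG2, an antiproliferative protein that recruits mRNA deadenylases, rose by 1.11 ± 0.10 with ICM and 0.69 ± 0.10 in old cells, and its 3 groups did not overlap. GADD45A, a growth-arrest protein that binds PCNA and activates stress kinases, rose by 0.62 ± 0.08 with ICM and by 0.85 ± 0.08 in old cells. Its level was 70.4 to 83.4 CPM in young, 127 to 160 CPM in old and 114 to 129 CPM in ICM libraries. ICM was below old cells by a log2 difference of -0.24 ± 0.08 (adjusted p = 0.0125), a call lost without old 3 (adjusted p = 0.0901) or without ICM 3 (adjusted p = 0.0682).

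The Polo-like kinases separated the arrested states. PLK2, a kinase of centriole duplication and stress responses, stood at 136, 144 and 135 CPM in young, 66.3, 70.7 and 73.6 CPM in old and 153, 152 and 148 CPM in ICM libraries. Its old libraries averaged 70.2 CPM against 138 CPM in the young, and the ICM libraries sat just above the young ones without overlap. The change was -0.98 ± 0.06 in old cells (adjusted p = 7.84e-12) and 0.13 ± 0.06 with ICM (adjusted p = 0.0671), and ICM exceeded old cells by 1.10 ± 0.06 (adjusted p = 6.03e-13). PLK3, a related stress kinase, moved in the opposite sense, with 20.5 to 22.5 CPM in young, 39.2 to 47.9 CPM in old and 25.0 to 25.2 CPM in ICM libraries. It rose by 0.99 ± 0.09 in old cells (adjusted p = 1.55e-09), and its ICM libraries were lower than the old by -0.75 ± 0.08 (adjusted p = 5.92e-08). The smaller rise of PLK3 with ICM, 0.24 ± 0.09 (adjusted p = 0.0253), was lost without young 2 (adjusted p = 0.0981), young 3 (adjusted p = 0.0608) or ICM 1 (adjusted p = 0.0587).

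All 9 mRNAs of the death group were called with ICM, 8 higher and 1 lower, and in old cells 6 were higher and 1 lower. The receptors of extrinsic death signals rose in both states. FAS, the receptor of FAS ligand, rose by 0.63 ± 0.08 with ICM and 0.97 ± 0.08 in old cells, from 32.5 to 36.1 CPM in young libraries to 51.2 to 53.7 CPM with ICM and 61.3 to 73.1 CPM in old ones. TNFRSF10B, the TRAIL receptor DR5, rose by 0.74 ± 0.06 with ICM and 0.85 ± 0.06 in old cells. TNFRSF10C, a decoy receptor that binds TRAIL without passing on a death signal, had the largest changes of the 31, 2.23 ± 0.21 with ICM and 1.96 ± 0.23 in old cells. It was also the scarcest, with 36 reads over the 3 young libraries (0.993, 1.40 and 1.14 CPM), against 4.84, 4.67 and 4.64 CPM in old and 5.93, 4.63 and 6.27 CPM in ICM libraries.

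The BCL2 family members among the 31 were BAX and BBC3, of the intrinsic death pathway. BAX, which opens pores in the mitochondrial outer membrane, stood at 117, 111 and 116 CPM in young, 101.1, 99.0 and 94.1 CPM in old and 139, 136 and 148 CPM in ICM libraries. The 3 groups did not overlap, with old lowest and ICM highest. BAX rose by 0.30 ± 0.06 with ICM (adjusted p = 0.000156) and fell in old cells by 0.23 ± 0.06 on the log2 scale (adjusted p = 0.00312), so that ICM exceeded old by 0.53 ± 0.06 (adjusted p = 1.28e-07). BBC3, the BH3-only protein PUMA, stood at 8.19, 8.98 and 12.8 CPM in young and 6.61, 5.64 and 6.44 CPM in ICM libraries. It fell with ICM by 0.69 ± 0.16 on the log2 scale (adjusted p = 0.000526), and its change in old cells was -0.20 ± 0.15 (adjusted p = 0.24). Against old cells, ICM was lower for BBC3 by a log2 difference of -0.48 ± 0.16 (adjusted p = 0.0113), a call lost without old 1 (adjusted p = 0.0581).

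Among the other genes of the death group, PERP, a membrane protein of cell junctions and p53-dependent apoptosis, rose by 1.09 ± 0.07 with ICM and 1.04 ± 0.07 in old cells, from 183 to 209 CPM in young libraries to 404.6 to 419 CPM with ICM and 373 to 424.5 CPM in old ones. PHLDA3, a repressor of AKT, rose by 0.67 ± 0.07 and 0.58 ± 0.07. TRIAP1, a small mitochondrial protein of lipid transfer that limits apoptosis, rose by 0.45 ± 0.08 and 0.34 ± 0.08. For these genes ICM and old cells did not differ by the test, with adjusted p of 0.536 for PERP, 0.33 for PHLDA3 and 0.221 for TRIAP1. AEN, an apoptosis-enhancing nuclease, rose with ICM (0.56 ± 0.07, adjusted p = 9.87e-08) and its change of 0.15 ± 0.07 in old cells just missed the threshold (adjusted p = 0.0509).

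In the repair group the genes of nucleotide excision repair divided. XPC, which recognises distorted DNA, stood at 48.2, 43.9 and 45.6 CPM in young, 38.0, 35.2 and 39.3 CPM in old and 90.0, 90.0 and 81.4 CPM in ICM libraries. All ICM libraries lay above the young ones and all old libraries below. XPC rose by 0.93 ± 0.07 with ICM (1.9-fold, adjusted p = 7.3e-11) and fell in old cells by 0.29 ± 0.08 on the log2 scale (adjusted p = 0.00194). The difference between ICM and old cells was 1.22 ± 0.07 (2.33-fold, adjusted p = 1.02e-12), the largest of the 31. DDB2, which detects ultraviolet lesions, had a change of -0.32 ± 0.11 with ICM (adjusted p = 0.015) and -0.01 ± 0.11 in old cells (adjusted p = 0.937). The call of DDB2 with ICM was lost without young 2 (adjusted p = 0.124), ICM 1 (adjusted p = 0.0653) or ICM 2 (adjusted p = 0.0515) and with CDS reads alone (adjusted p = 0.0534). Its difference of -0.31 ± 0.11 between ICM and old cells was lost without old 2 (adjusted p = 0.123), ICM 1 (adjusted p = 0.0799) or ICM 2 (adjusted p = 0.0636).

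The other repair genes rose in both states. RRM2B, the p53-inducible subunit of ribonucleotide reductase that supplies deoxyribonucleotides, stood at 41.7, 37.5 and 47.6 CPM in young, 92.5, 97.6 and 100.4 CPM in old and 118, 108 and 120.2 CPM in ICM libraries. The groups were ordered young, old, ICM without overlap. The rises were 1.45 ± 0.08 with ICM (2.74-fold, adjusted p = 1.79e-13) and 1.20 ± 0.08 in old cells (2.29-fold, adjusted p = 1.23e-11), and ICM exceeded old by 0.25 ± 0.07 (adjusted p = 0.00402). POLH, the polymerase that copies past ultraviolet lesions, rose by 0.61 ± 0.07 with ICM and by 0.93 ± 0.07 in old cells, and was lower in ICM than in old cells by -0.32 ± 0.06 (adjusted p = 0.000155).

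In the group of metabolism, mitochondria and secreted factors, 6 of 8 mRNAs rose and 2 fell with ICM, and 5 rose and 1 fell in old cells. GDF15, a secreted stress hormone of the TGF-beta family, stood at 57.1, 68.1 and 66.5 CPM in young, 125, 127 and 143 CPM in old and 203, 267 and 206 CPM in ICM libraries. The order was young, old, ICM, with ICM 2 the highest and no overlap. GDF15 rose by 1.81 ± 0.09 with ICM (3.51-fold, adjusted p = 1.01e-13) and by 1.04 ± 0.10 in old cells (2.05-fold, adjusted p = 2.93e-09), and ICM exceeded old by 0.77 ± 0.09 (adjusted p = 1.07e-07). SPATA18, a protein of mitochondrial quality control, kept the same order, with 7.76 to 8.58 CPM in young, 13.6 to 18.8 CPM in old and 24.6 to 29.3 CPM in ICM libraries. It rose by 1.71 ± 0.12 and 0.99 ± 0.13. TIGAR, a fructose bisphosphatase that slows glycolysis, rose by 1.08 ± 0.07 and 0.63 ± 0.08. TP53I3, a quinone oxidoreductase-like enzyme, rose by 0.62 ± 0.08 and 0.34 ± 0.08. FDXR, which passes electrons to mitochondrial P450 enzymes, rose with ICM (0.69 ± 0.10, adjusted p = 1.12e-06), and its change in old cells was 0.16 ± 0.10 (adjusted p = 0.169).

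The sestrins, inhibitors of mTORC1 signalling, moved apart. SESN1 stood at 11.8, 11.3 and 10.6 CPM in young, 14.5, 12.8 and 11.3 CPM in old and 18.7, 17.9 and 17.97 CPM in ICM libraries. It rose with ICM (0.70 ± 0.11, adjusted p = 4.04e-06), with a change of 0.20 ± 0.11 in old cells (adjusted p = 0.135). SESN2, which is also a target of the amino acid stress factor ATF4, stood at 51.9, 58.2 and 54.8 CPM in young, 44.4, 41.2 and 50.4 CPM in old and 31.2, 33.5 and 28.7 CPM in ICM libraries. Its groups did not overlap and were ordered young, old, ICM from high to low. SESN2 fell with ICM by 0.83 ± 0.08 on the log2 scale (adjusted p = 1.19e-08) and in old cells by 0.29 ± 0.08 on the log2 scale (adjusted p = 0.00423). The smaller fall was not called with CDS reads alone (adjusted p = 0.0625).

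TP53I11, a membrane protein that p53 induces, was the third target with opposite calls. It stood at 247, 249 and 219 CPM in young, 387, 372 and 427 CPM in old and 209, 218 and 204 CPM in ICM libraries. Old libraries lay far above and ICM libraries just below the young ones. TP53I11 rose in old cells (0.73 ± 0.07, adjusted p = 3.22e-09), and ICM lay below old cells by a log2 difference of -0.91 ± 0.07 (adjusted p = 7.22e-11). The change of -0.18 ± 0.07 with ICM (adjusted p = 0.0224) was lost without young 1 (adjusted p = 0.0874), young 2 (adjusted p = 0.108), ICM 1 (adjusted p = 0.0672) or ICM 3 (adjusted p = 0.0882), and with CDS reads alone (adjusted p = 0.23).

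**Figure D3:**
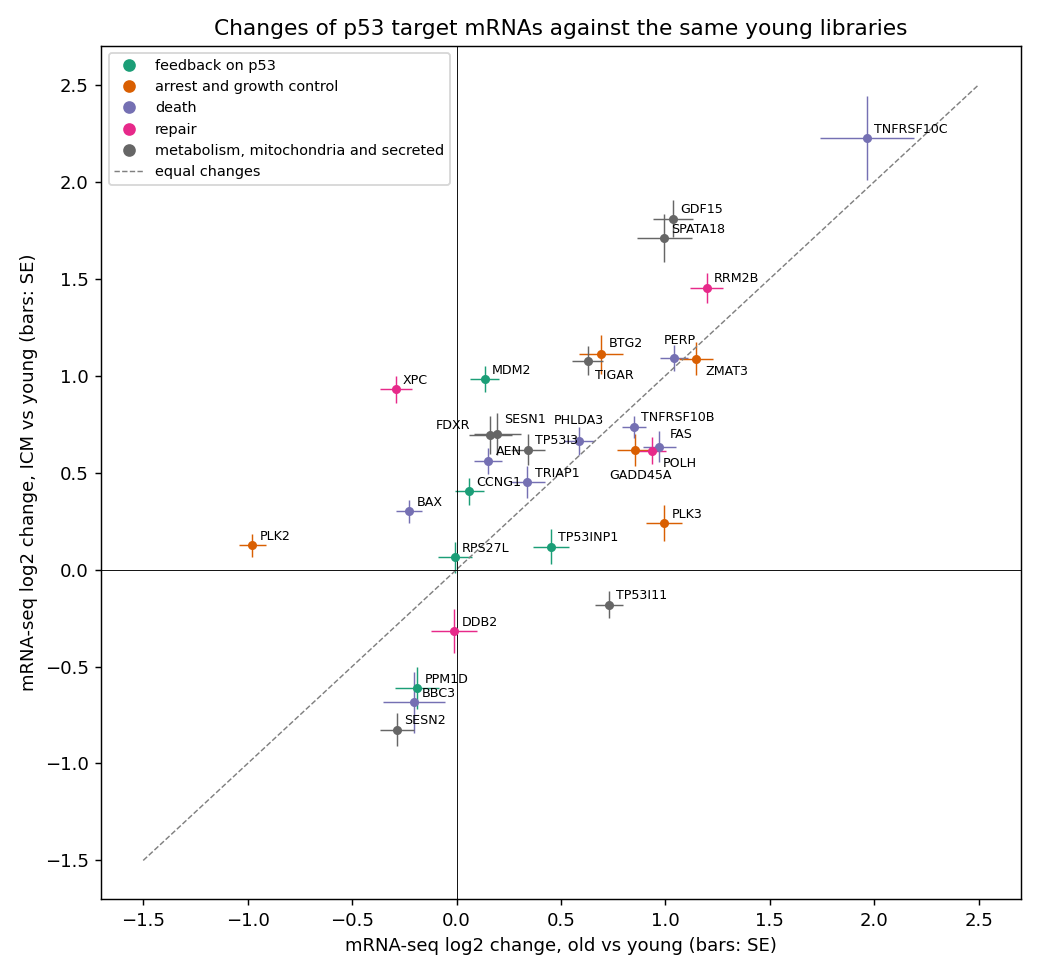
Log2 change of each target's mRNA with ICM (y axis) against that in old cells (x axis), both relative to the same 3 young libraries, with SE bars and colours for roles. The dashed line marks equal changes. XPC, BAX and PLK2 lie above it on the left, and PLK3 and TP53I11 below it on the right.

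The targets were also counted by whether a consensus site lay near the start. With ICM, 12 of the 14 with a site rose and 1 fell, against 11 and 4 of the 17 without. In old cells 8 rose and 2 fell among those with a site and 10 and 2 among those without. The median log2 change was 0.69 with and 0.61 without a site for ICM, and 0.77 and 0.34 in old cells. Among the genes with 0 mismatches, ZMAT3 rose in both states, while PLK2 fell in old cells. These counts are a description, and no test was made.

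Of 21 listed regulators, 19 were tested in mRNA-seq. With ICM 2 rose and 11 fell, where 34.9% of all genes rose and 36.1% fell. In old cells 1 rose and 14 fell, where 32.4% of all genes rose and 33.7% fell. The rises with ICM were those of HIPK2, a kinase that phosphorylates p53 (0.93 ± 0.08, adjusted p = 8.34e-10), and PPP1R13B, the p53 cofactor ASPP1 (0.42 ± 0.15, adjusted p = 0.0157). HIPK2 stood at 285 to 317.5 CPM in young, 230 to 309 CPM in old and 557 to 591 CPM in ICM libraries, and its change in old cells was -0.13 ± 0.08 (adjusted p = 0.157). PPP1R13B fell in old cells by 0.67 ± 0.18 on the log2 scale (adjusted p = 0.00203), and its rise with ICM was lost without young 3 (adjusted p = 0.0731) or ICM 3 (adjusted p = 0.129). MDM4, the partner of MDM2 that holds p53 inactive, fell with ICM by 0.65 ± 0.13 on the log2 scale (adjusted p = 9.28e-05) and in old cells by 1.22 ± 0.14 on the log2 scale (adjusted p = 6.76e-08), from 11.04 to 14.7 CPM in young libraries to 7.96 to 8.60 CPM with ICM and 5.01 to 6.38 CPM in old ones. Its difference of 0.58 ± 0.15 between ICM and old was lost with CDS reads alone (adjusted p = 0.132). CHEK1, a kinase of the replication checkpoint that proliferating cells express, fell by 1.54 ± 0.11 with ICM and fell by 1.05 ± 0.11 in old cells on the log2 scale.

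PPP1R13L, the p53 inhibitor iASPP, was scarce and moved in opposite senses. It stood at 3.72, 3.84 and 2.48 CPM in young, 6.77, 3.71 and 4.91 CPM in old and 0.751, 0.555 and 1.19 CPM in ICM libraries. The ICM libraries lay below all others, and young and old overlapped. It fell with ICM by 1.98 ± 0.33 on the log2 scale (adjusted p = 1.19e-05), and its rise in old cells of 0.58 ± 0.23 (adjusted p = 0.0287) was lost without young 3 (adjusted p = 0.163), without old 1 (adjusted p = 0.191) and in DESeq2 (adjusted p = 0.0559).

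Of 21 further p53 targets outside the 31, 19 were tested in mRNA-seq. With ICM 14 rose and 5 fell, and in old cells 13 rose and 2 fell, with a median log2 change of 0.55 and 0.43. Of all genes, 34.9% rose and 36.1% fell with ICM, and 32.4% rose and 33.7% fell in old cells. PMAIP1, the BH3-only protein NOXA, stood at 50.01, 44.9 and 57.7 CPM in young, 128, 143 and 151 CPM in old and 64.5, 53.7 and 66.7 CPM in ICM libraries. It rose by 1.47 ± 0.09 in old cells (adjusted p = 3.49e-12). Its rise of 0.28 ± 0.09 with ICM (adjusted p = 0.011) was lost without young 2 (adjusted p = 0.105) or ICM 3 (adjusted p = 0.0638). CDKN1A stood at 521, 519 and 502 CPM in young, 1569, 1481 and 1605 CPM in old and 3213, 3477 and 3255 CPM in ICM libraries. The 3 groups were far apart in the order young, old, ICM. CDKN1A rose by 2.69 ± 0.07 with ICM (6.44-fold, adjusted p = 1.17e-19) and by 1.59 ± 0.06 in old cells (3.02-fold, adjusted p = 2.09e-15), and ICM exceeded old by 1.10 ± 0.06 (adjusted p = 5.91e-13).

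The next largest rises with ICM in that list were those of TNFRSF10D, another decoy receptor of TRAIL (2.13 ± 0.06), and ABHD4, a lipase of N-acyl phospholipids (1.60 ± 0.07). TNFRSF10D rose by 2.48 ± 0.06 in old cells and ABHD4 by 0.29 ± 0.07. The largest falls with ICM were those of RRAD, a GTPase that blocks calcium channels (-3.58 ± 0.36), DDIT4, an inhibitor of mTORC1 (-2.32 ± 0.13), and FHL2, a LIM-domain cofactor (-1.36 ± 0.06). In old cells DDIT4 also fell (-1.69 ± 0.13), while RRAD (0.06 ± 0.21, adjusted p = 0.815) and FHL2 (0.13 ± 0.06, adjusted p = 0.057) were not called. RRAD rested on 13 reads over the 3 ICM libraries and 133 over the young.

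The footprint libraries were shallower and less even than the mRNA libraries. In young 1, old 2 and ICM 3 a single read was worth 18.4, 18.3 and 21.7 CPM, here without TMM scaling, so that most targets rested on a few reads there. CDS reads were 34.4% of the reads in young 1 and 15.0% in old 2, against 54.7% to 88.8% in the other Ribo-seq libraries. Of the 31 targets, 17 passed the filter on low counts in Ribo-seq, among 4643 genes. The other 14 were PPM1D, TP53INP1, BTG2, PLK3, ZMAT3, FAS, TNFRSF10C, BBC3, TRIAP1, DDB2, SESN1, SESN2, FDXR and SPATA18.

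Among the 17 tested, no footprint level fell with ICM and 7 rose, where 13.7% of all genes rose and 12.9% fell. At an unadjusted p under 0.05, 8 of the 17 differed, all of them higher, and DESeq2 called none lower. The share of all genes at that unadjusted p was not worked out, so the 8 stand without a background. In old cells 7 rose and 1 fell, where 19.3% of all genes rose and 17% fell. Between ICM and old cells, 4 targets were higher with ICM and 1 lower, where 5.79% of all genes were higher and 7.62% lower. The median log2 change of the 17 was 0.83 with ICM, 0.58 in old cells and 0.34 between the arrested states. These counts moved with single libraries and settings, some of which also let through targets outside the 17. With no filter on low counts, SESN2 and TRIAP1, outside the 17, were called lower with ICM than in young or old cells. With only the compared groups, PLK3 and ZMAT3, also outside the 17, were called higher in old cells. The 7 rises with ICM became 4 without young 3, without ICM 1 or in DESeq2, and 1 or 2 targets were called lower with ICM without young 1, old 2, ICM 3 (1 each) or ICM 1 (2). In old cells, 4 to 11 rose over all alternatives, and the 1 fall became 2 without young 1, ICM 1 or ICM 2. Between ICM and old cells, the 4 higher became 2 without ICM 1, in DESeq2 or with a replicate block. The 1 lower became 0 without young 2, young 3, old 1 or old 3 and in DESeq2, 2 without young 1, old 2 or ICM 3, and 4 with no filter on low counts.

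**Figure D4:**
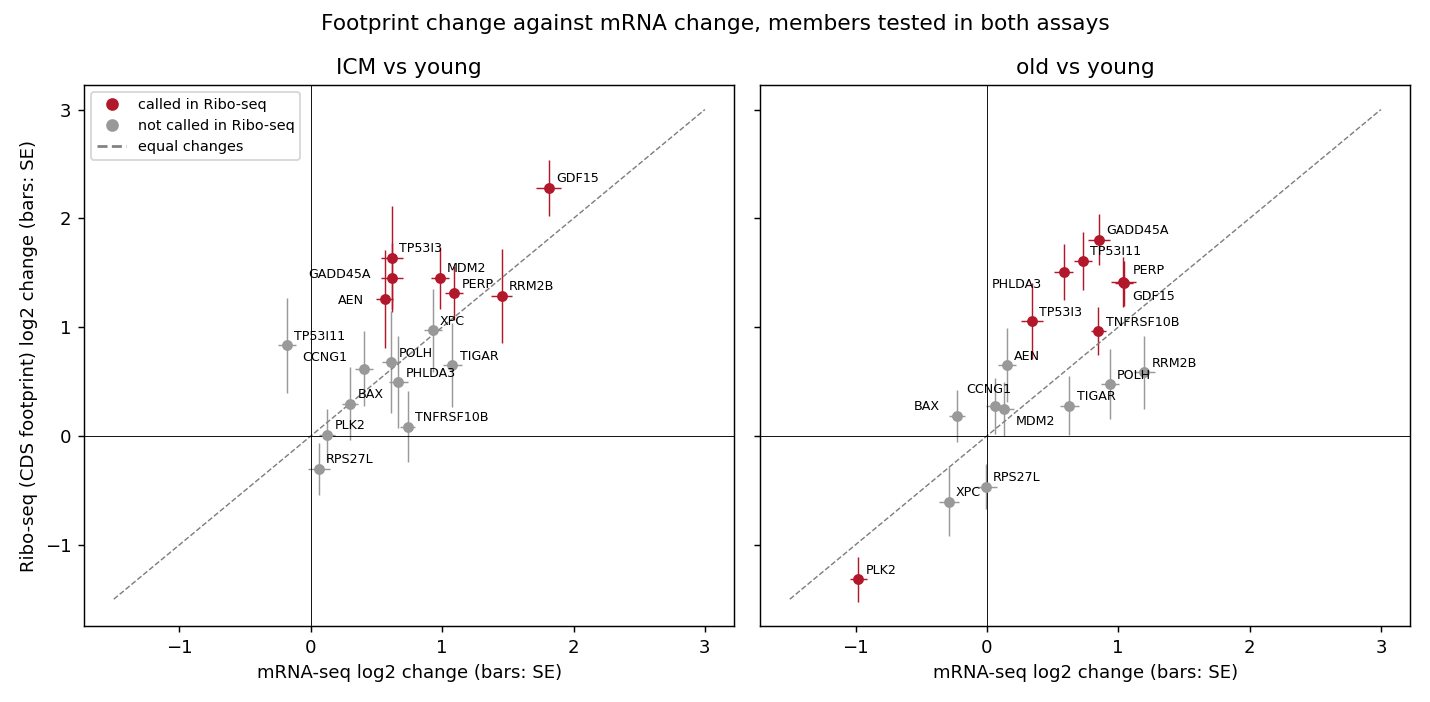
Log2 change in CDS footprints (y axis) against log2 change in mRNA (x axis) for the 17 targets tested in both assays, with ICM on the left and in old cells on the right, both relative to young cells, with SE bars. Red points were called in Ribo-seq and the dashed line marks equal changes. GDF15 was the highest footprint change with ICM, and GADD45A in old cells.

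GDF15 had the clearest footprint change. It stood at 218, 112 and 114 CPM in young, 335, 161 and 337 CPM in old and 488, 791 and 502 CPM in ICM Ribo-seq libraries. All ICM libraries lay above the rest, and old 2 fell within the young range. Its footprints rose by 2.28 ± 0.26 with ICM (4.86-fold, adjusted p = 1.57e-08) and by 1.41 ± 0.23 in old cells (adjusted p = 9.43e-06). ICM exceeded old cells by 0.87 ± 0.23 (adjusted p = 0.009), a call lost without old 2 (adjusted p = 0.0576) or ICM 2 (adjusted p = 0.109), without young 1 and old 2 together (adjusted p = 0.0551) and with no filter on low counts (adjusted p = 0.102).

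PERP footprints rose in both states, by 1.31 ± 0.25 with ICM (adjusted p = 0.000104) and 1.40 ± 0.21 in old cells (adjusted p = 2.49e-06). They stood at 178, 166 and 163 CPM in young, 501, 262 and 417 CPM in old and 473, 409 and 251 CPM in ICM libraries, with no overlap between young and either arrested state. GADD45A stood at 39.6, 76.7 and 70.6 CPM in young, 205, 322 and 298 CPM in old and 158, 218 and 297 CPM in ICM libraries, again with the young libraries lowest. Its footprints rose by 1.45 ± 0.32 with ICM (2.74-fold, adjusted p = 0.000663) and by 1.80 ± 0.23 in old cells (3.49-fold, adjusted p = 1.76e-07).

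The footprints of PLK2 and XPC, like their mRNAs, told ICM from old cells. PLK2 stood at 258, 265 and 278 CPM in young, 112, 80.5 and 107 CPM in old and 271, 205 and 388 CPM in ICM Ribo-seq libraries. It fell in old cells by 1.32 ± 0.20 on the log2 scale (adjusted p = 4.49e-06), had a change of 0.01 ± 0.24 with ICM (adjusted p = 0.975), and was higher in ICM than in old cells by 1.33 ± 0.26 (adjusted p = 0.000306). XPC was higher in ICM than in old cells by 1.58 ± 0.41 (adjusted p = 0.00606), at 133, 123 and 45.7 CPM against 44.1, 20.1 and 30.8 CPM. That call was lost without ICM 1 (adjusted p = 0.277) or old 3 (adjusted p = 0.0583), in DESeq2 (adjusted p = 0.0611) and with a replicate block (adjusted p = 0.06). The footprint changes of XPC against young cells were 0.97 ± 0.38 with ICM (adjusted p = 0.0551) and -0.60 ± 0.32 in old cells (adjusted p = 0.132).

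MDM2 footprints stood at 178, 106 and 102 CPM in young, 127, 201 and 117 CPM in old and 384, 232 and 114 CPM in ICM libraries. ICM 1 and ICM 2 lay above all others, and ICM 3, with a few reads, lay within the young range. The rise was 1.46 ± 0.28 with ICM (adjusted p = 0.000172), and the change in old cells was 0.25 ± 0.25 (adjusted p = 0.445). Of 100 MDM2 footprints in ICM libraries most came from ICM 1, and without that library the rise over young cells was not called (adjusted p = 0.278). The difference of 1.20 ± 0.28 between ICM and old cells was also lost without ICM 1 (adjusted p = 0.591), in DESeq2 (adjusted p = 0.162) and with a replicate block (adjusted p = 0.0605).

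The remaining calls with ICM were those of TP53I3, RRM2B and AEN, which rested on 34, 44 and 34 footprints in the 3 ICM libraries. TP53I3 rose by 1.64 ± 0.47 (adjusted p = 0.00869), a call lost without young 3 (adjusted p = 0.146) or ICM 2 (adjusted p = 0.146), in DESeq2 (adjusted p = 0.0603) and with a replicate block (adjusted p = 0.052). RRM2B stood at 202, 0 and 68.5 CPM in the ICM Ribo-seq libraries and 39.6, 60.7 and 49.0 CPM in the young. Its rise of 1.29 ± 0.43 (adjusted p = 0.0236) turned to -1.13 without ICM 1 (adjusted p = 0.415), and was lost without young 2 (adjusted p = 0.127), young 3 (adjusted p = 0.254) or old 1 (adjusted p = 0.073), in DESeq2 (adjusted p = 0.387) and with a replicate block (adjusted p = 0.448). AEN, at 113, 150.0 and 0 CPM with ICM, rose by 1.26 ± 0.45 (adjusted p = 0.0349). This call was lost under 9 of 15 alternatives, among them leaving out young 2 (adjusted p = 0.0756), young 3 (adjusted p = 0.468), old 1 (adjusted p = 0.107), old 3 (adjusted p = 0.106), ICM 1 (adjusted p = 0.298) or ICM 2 (adjusted p = 0.0993).

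In old cells, PHLDA3 footprints rose by 1.51 ± 0.25 (adjusted p = 1.53e-05), from 39.6, 46.4 and 57.3 CPM in young libraries to 134, 201 and 166 CPM in old ones. The ICM libraries of PHLDA3 were spread from 27.3 to 114 CPM, and the change with ICM was 0.50 ± 0.42 (adjusted p = 0.41). Its difference of -1.01 ± 0.37 between ICM and old cells was not called (adjusted p = 0.0645), although those libraries did not overlap. TP53I11 footprints rose by 1.61 ± 0.27 in old cells (adjusted p = 1.19e-05), from 19.8, 39.96 and 42.0 CPM to 129, 121 and 117 CPM. With ICM they stood at 69.0, 40.9 and 137 CPM. That change of 0.83 ± 0.43 was not called (adjusted p = 0.161), and unlike the mRNA change it was not negative. The difference of -0.78 ± 0.38 between ICM and old cells was not called either (adjusted p = 0.187). TP53I3 footprints rose by 1.05 ± 0.35 in old cells (adjusted p = 0.0172), a call lost without young 2 (adjusted p = 0.14), young 3 (adjusted p = 0.462), old 1 (adjusted p = 0.493) or old 3 (adjusted p = 0.187), in DESeq2 (adjusted p = 0.512) and with a replicate block (adjusted p = 0.184).

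Although the difference of PHLDA3 was larger, TNFRSF10B was the only target whose footprints were called lower with ICM than in old cells. Its Ribo-seq level was 238, 137 and 107 CPM in young, 234, 282 and 255 CPM in old and 138, 177 and 45.7 CPM in ICM libraries. Old and ICM libraries did not overlap, while the young ones overlapped both. The rise in old cells was 0.97 ± 0.22 (adjusted p = 0.000779), a call lost without young 2 (adjusted p = 0.0734), young 3 (adjusted p = 0.23) and in DESeq2 (adjusted p = 0.145). The difference of -0.88 ± 0.30 between ICM and old cells (adjusted p = 0.0493) was at the threshold and was lost under 11 of 17 alternatives, among them leaving out young 2 (adjusted p = 0.0862), young 3 (adjusted p = 0.0723), old 1 (adjusted p = 0.0973), old 3 (adjusted p = 0.135), ICM 1 (adjusted p = 0.114) or ICM 3 (adjusted p = 0.0585).

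The other 5 of the 17, CCNG1, RPS27L, BAX, POLH and TIGAR, were called in no footprint comparison. Their log2 changes with ICM ran from -0.30 for RPS27L to 0.68 for POLH, and in old cells from -0.47 for RPS27L to 0.48 for POLH. The opposite mRNA changes of BAX had no counterpart that could be detected at this depth. Its footprint change was 0.30 ± 0.33 with ICM and 0.19 ± 0.24 in old cells.

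Among the 14 targets below the filter, SESN2 and TRIAP1 were scarce in ICM footprints. SESN2 had 107 footprints in young, 96 in old and 3 in ICM libraries, which is 39.6, 46.4 and 48.4 CPM, 54.0, 60.4 and 34.9 CPM and 14.8, 0 and 0 CPM by library. TRIAP1 had 45 in young, 51 in old and 0 in ICM libraries. By library it stood at 0, 25.6 and 18.45 CPM in young and 31.3, 0 and 14.4 CPM in old ones. The shallow libraries young 1 and old 2 thus also held none, and old 1 gave 44 of the old reads. The 0 of TRIAP1, in libraries for which a count of 0 allows up to 8.57 CPM, here without TMM scaling, lay at least 2.14-fold below the young level of 18.3 CPM. These floors cover counting error only. With no filter on low counts both genes were called lower with ICM than in young cells, at adjusted p of 0.0237 for SESN2 and 0.0325 for TRIAP1, although the TRIAP1 mRNA rose. BBC3 also had 0 footprints in ICM libraries, with 18 in young and 13 in old, but its young level of 7.32 CPM was under the limit that 0 allows. ZMAT3, with 50, 102 and 26 footprints in young, old and ICM libraries, was called higher without the filter by 1.56 with ICM (adjusted p = 0.0248) and by 1.12 in old cells (adjusted p = 0.0291).

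CDKN1A footprints rose by 2.28 ± 0.21 with ICM (4.86-fold, adjusted p = 2.6e-10) and by 1.20 ± 0.21 in old cells (adjusted p = 2e-05), at 614, 361 and 312 CPM in young, 1018, 684 and 733 CPM in old and 1823, 1528 and 2055 CPM in ICM libraries. Those groups did not overlap. Of the 11 regulators tested in Ribo-seq, 1 fell with ICM and 6 fell in old cells. Of the 9 other targets tested, 4 rose and 2 fell with ICM, and 5 rose and 1 fell in old cells. Of all genes tested, 13.7% rose and 12.9% fell with ICM, and 19.3% rose and 17% fell in old cells.

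Translational efficiency, the footprint level relative to the mRNA level, was compared through the assay-by-condition interaction over 4618 genes, again with 17 of the targets. With ICM no target was called, where 1.36% of all genes were higher and 1.02% lower, and 5 targets reached an unadjusted p under 0.05. These were GADD45A, TP53I3, TP53I11 and GDF15, which were higher, and TNFRSF10B, which was lower. DESeq2 called no target with ICM either. The shares of all genes at an unadjusted p under 0.05 were not worked out for efficiency. In old cells 1 of the 17, GADD45A, was higher and none lower, where 0.693% of all genes were higher and 0.736% lower. In that comparison 3 targets reached an unadjusted p under 0.05, and DESeq2 called none in either direction. The 3 were GADD45A, PHLDA3 and TP53I11, all of them higher. Between ICM and old cells none was called in edgeR or DESeq2, where 0.152% of all genes were higher and 0.195% lower. At an unadjusted p under 0.05, 2 targets differed, PHLDA3 and TNFRSF10B, both lower with ICM.

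For GADD45A, footprints rose more than mRNA in old cells, by a log2 difference of 1.04 ± 0.24 (2.05-fold, adjusted p = 0.0142). The corresponding value with ICM was 0.91 ± 0.31 (adjusted p = 0.116), and the ICM and old values differed by -0.13 ± 0.28 (adjusted p = 0.92). The call in old cells was lost without the lysates young 2 (adjusted p = 0.355), young 3 (adjusted p = 0.647), old 1 (adjusted p = 0.159) or old 3 (adjusted p = 0.549), with no filter on low counts (adjusted p = 0.0615) and in DESeq2. PHLDA3 came next in old cells, at 0.94 ± 0.26 (adjusted p = 0.066). For PLK2, XPC, MDM2 and GDF15 the efficiency values lay between -0.38 and 0.53 in the comparisons with young cells and passed no test.

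TP53I11 stood apart in where its footprints lay. Over all 9 Ribo-seq libraries it had 401 footprints in the 5′ UTR and 360 in the CDS, so that 52.7% lay upstream of the coding start. Of the 401, 252 came from old 1 and 77 from young 3, so the pooled share rests mostly on old 1. The median of the 4643 genes tested was 0.786% and that of the 17 targets 1.54%, and only 0.108% of all genes tested reached the share of TP53I11. By library the share was 50%, 52.8% and 53.8% in young, 58.1%, 14.3% and 37.4% in old and 33.3%, 25% and 0% in ICM, where several libraries held few reads. In the 5′ UTR and the CDS, young 1 had 1 and 1 footprint, old 2 had 1 and 6, and the ICM libraries had 7 and 14, 1 and 3, and 0 and 6. In mRNA-seq the 5′ UTR held 32.5% of the 5′ UTR and CDS reads of TP53I11 in young libraries, 32.2% in old and 35.7% in ICM libraries. Its CDS footprints, on which the tests above rest, count none of the upstream ones. As given above, exons of TP53I11 overlap a coding gene on the opposite strand, and reads of the pair cannot be told apart. The next highest target was TNFRSF10B, with 104 footprints in the 5′ UTR against 777 in the CDS (11.8%), and 14 of the 17 targets lay under 5%.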

How the data were processed

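The deposited tables held estimated counts of reads per gene symbol, with separate columns for the 5′ UTR, CDS and 3′ UTR, which the authors had not scaled to depth. In each library 14.1% to 23.2% of the non-zero values were not whole numbers, and counts were rounded. The submitters' processing notes name STAR 2.6.0c, featureCounts, DESeq2, deepTools and GRCh37 without roles, and the aligner and annotation of these tables were not given in the sources used here. Following the study's methods, CDS counts were used for Ribo-seq, and the 3 regions were summed for mRNA-seq.

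Each assay was tested on all genes with edgeR 4.0.16 in R 4.3.3 (quasi-likelihood test, TMM scaling, filterByExpr, 9 libraries in 1 fit, two-sided, Benjamini-Hochberg adjustment, called at an adjusted p under 0.05). SE came from the change and its F statistic. Translational efficiency was fitted over 18 libraries with the lysate as a block. This block rests on the methods, by which both libraries of a replicate came from 1 lysate. Deviations of such pairs from their group means correlated with r of -0.0795 to 0.136. The steps were tested on simulated data. Alternatives were DESeq2 1.42.0, RLE scaling, other filters, CDS reads alone, subsets of libraries, a replicate block and a threshold of 0.15, which the study used with anota2seq, a tool not used here.

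The members and lists, and the tests, were chosen with earlier results of these data known. All 31 targets are named, with MDM4, each regulator called with an absolute log2 change of at least 1 in mRNA against young cells, CDKN1A, and the 3 largest rises and 3 largest falls with ICM among the other targets. HIPK2, PPP1R13B, PMAIP1 and CYFIP2, the SESN2, TRIAP1, BBC3 and ZMAT3 footprints below the filter, and the 5′ UTR share of TP53I11, were singled out after their values were seen. Gene starts, exons and sites came from GENCODE lifted to GRCh37 and that genome, with Python 3.11.15. Protein sequences were not analysed here, and 1 gene of the regulator list is not reported here.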

Additional observations from a re-analysis of the deposited data

Results flagged for a closer look

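Some effects against young cells differed between ICM and old cells by the test of the difference itself, with the calls of the same mRNA in opposite directions. The log2 difference between ICM and old cells was 1.22 for XPC, 0.53 for BAX, -0.91 for TP53I11, -2.56 for PPP1R13L, 1.09 for PPP1R13B and -1.28 for CYFIP2 (edgeR, adjusted p of 1.02e-12, 1.28e-07, 7.22e-11, 9.3e-08, 3.72e-06 and 2.01e-09). CYFIP2, a p53 target of the WAVE complex, fell with ICM by 0.58 and rose in old cells by 0.71 on the log2 scale. For XPC, BAX and CYFIP2 the calls against young cells were kept under every alternative run in mRNA-seq. For TP53I11 and PPP1R13B the call with ICM and for PPP1R13L the call in old cells were each lost without single libraries, as given above.

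The footprint and mRNA changes of GADD45A in old cells differed from each other by a log2 value of 1.04 (edgeR interaction test, adjusted p = 0.0142), the only efficiency call among the 17 targets tested. It was kept under 11 of 17 alternatives.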

How the results depend on the processing

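Counts of targets called in mRNA-seq stayed within 1.5 times the reported ones under every alternative run, except those lower with ICM than in young cells, of which 3 were left in place of 5 with CDS reads alone and 3 to 5 when each library was left out in turn. Of single mRNA results under an alternative, 2178 of 2235 kept their direction and side of the threshold. ZMAT3 reversed between ICM and old cells with CDS reads alone (log2 difference 0.31). In Ribo-seq, 1001 of 1104 were kept, and RRM2B with ICM ran from -1.13 to 1.66 as each library was left out, negative without ICM 1. In translational efficiency 1106 of 1119 were kept.

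Footprint counts moved more, and the cause was not tested beyond the number of targets that each filter or sample set let through. Targets higher with ICM than in young cells numbered 4 in DESeq2, with a mean of at least 50 counts, with a replicate block and with only the compared groups, and 4 to 9 with each library left out. Targets lower with ICM numbered 2 with no filter or without young 1 and old 2, and 0 to 2 with each library left out. With no filter, and without young 1 and old 2 together, these were SESN2 and TRIAP1, which the main filter had left out. In old cells, 4 were higher and 2 lower with a mean of at least 50 counts, 11 higher and 2 lower with only the compared groups, 3 lower at the threshold of 0.15, and 5 to 9 higher and 1 to 2 lower with each library left out. Between ICM and old cells, 2 were higher in DESeq2 and with the replicate block and 2 to 4 with each library left out. Those lower numbered 0 with RLE scaling, in DESeq2, with a mean of at least 50 counts, with the replicate block and with only the compared groups, 4 with no filter or without young 1 and old 2, 2 at the threshold of 0.15, and 0 to 2 with each library left out. For efficiency, 1 target was higher with ICM at 0.15. In old cells 0 were higher in DESeq2 and with no filter, 3 with no replicate block, 2 at 0.15, and 0 to 2 with each lysate left out.

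Whether replicate numbers paired the cultures across conditions could not be decided from these correlations. Deviations of same-numbered mRNA-seq libraries correlated with r of -0.0555 to 0.103. Pairs of mRNA-seq and Ribo-seq libraries from the same lysate gave r of -0.0795 to 0.136. The measure thus missed a pairing known from the methods, and its low values do not show that pairing was absent. The replicate block changed no call of the 31 targets in mRNA-seq. Depth limits the footprint results: ICM libraries held 350091 CDS reads together, against 2457711 in young and 2310905 in old.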
